A study of Mus musculus with 2 samples.

Results

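The Schlafen family was followed in macrophages and other mononuclear phagocytes of mouse B16 melanoma. Its members were the rows of both count matrices with the symbol *Slfn1*, *Slfn2*, *Slfn4*, *Slfn5*, *Slfn8* or *Slfn9*, which are 6 of the 27998 genes listed. The study sorted MerTk+ CD64+ tumor mononuclear phagocytes from B16F0 melanomas grown in C57Bl/6 mice, and made 1 droplet-based 3′ single-cell RNA library from *Fcmr*+/+ animals and 1 from *Fcmr*-/- animals. *Fcmr* is the gene of a putative receptor for soluble IgM, lost in the *Fcmr*-/- animals, while the implanted melanoma line was the same in both genotypes. The number of mice behind each library and their ages are not given in the sources used here. With 1 library per genotype there is no replicate, no test between genotypes was possible and no p-value is given.

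Schlafen proteins share an N-terminal core that can cleave or bind RNA, and many of their genes are induced by interferon. The short members *Slfn1* and *Slfn2* and the intermediate *Slfn4* lack the helicase-like domain that the long members *Slfn5*, *Slfn8* and *Slfn9* carry. In mice, *Slfn2* is required for the quiescence and survival of T cells and monocytes and protects tRNA from cleavage. *Slfn4* is known as a gene of myeloid cells under interferon or Toll-like receptor stimulation, and *Slfn1* as an inhibitor of T cell growth when it is forced on.

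After the study's limits on cells, the *Fcmr*+/+ library held 6352 cells with 128408544 unique molecular identifiers (UMIs, 1 for each RNA molecule captured) and the *Fcmr*-/- library 7999 cells with 124630621 UMIs. The median cell had 17973.5 UMIs in the *Fcmr*+/+ and 12911 in the *Fcmr*-/- library, and 73 cell barcodes occurred in both. A list of 9 macrophage genes took 14440 of every 1000000 UMIs in *Fcmr*+/+ and 14539 in *Fcmr*-/- cells. *Fcmr* itself had 7 and 6 UMIs, too few to check the genotypes. Markers of other cells were not level between the libraries. Summed over 10 genes, those of T and NK cells stood at 3.87 and 20.7 per 1000000 UMIs, and those of neutrophils at 56.1 and 122, although *Ly6g* had 0 and 3 UMIs. A level is given as CPM, the UMIs of a gene summed over a group of cells per 1000000 UMIs of that group. A UMI is counted once per molecule from its 3′ end, so levels of different genes were compared without division by length. Intervals are at the 95% level and exact (Poisson for levels, Clopper-Pearson for cell shares), and describe the error of counting alone.

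All 6 members lie in a single block of chromosome 11 (GRCm38, GENCODE M21) that runs over 344 kb from 82942341 to 83286726 and holds 10 annotated Schlafen genes. In order along the chromosome, *Slfn5* (ENSMUSG00000054404) lies at chr11:82951349-82964840 on the plus strand. *Slfn9* (ENSMUSG00000069793) at chr11:82978390-82991830 and *Slfn8* (ENSMUSG00000035208) at chr11:83002158-83020810 are on the minus strand. *Slfn2* (ENSMUSG00000072620) at chr11:83065112-83070678, *Slfn1* (ENSMUSG00000078763) at chr11:83116849-83122670 and *Slfn4* (ENSMUSG00000000204) at chr11:83175186-83190216 are again on the plus strand. The flanking gene *Nle1* had 6.10 CPM in *Fcmr*+/+ cells and 6.54 CPM in *Fcmr*-/- cells.

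Because interferon acts through short promoter elements, the promoters are shown here before the levels. RefSeq windows of 300 bases around the start site (GRCm38.p6, 250 bases before it) were found for all 6 members and searched on both strands for the interferon-stimulated response element GAAANNGAAA, the STAT-binding element TTCNNNGAA and the composite element of ETS and IRF factors, GGAANNGAAA. The first lay in the windows of *Slfn5*, *Slfn8* and *Slfn9*, the composite element in that of *Slfn2*, and none of the 3 in those of *Slfn1* and *Slfn4*. Of all 32851 windows, 3.44% held the first element, 8.30% the STAT-binding element and 2.72% the composite one, and these overlap where 2 GA-rich elements share bases. Of 47 type I interferon response genes with a window, 22 held the first element, as did 12 of 24 type II genes. Counted per gene, 3.99% of all genes with a window held it. The STAT-binding element lay in 7 of the 47 and 10 of the 24, beside 9.55% of all genes. The matches are printed on the strand of the gene, 5′ to 3′, with their neighboring bases and the element in capitals, to show how closely the *Slfn8* and *Slfn9* promoters resemble each other.
Slfn8, chr11:83020819-83020888, minus strand: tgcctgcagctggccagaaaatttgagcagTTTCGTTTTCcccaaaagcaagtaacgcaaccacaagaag
Slfn9, chr11:82991836-82991905, minus strand: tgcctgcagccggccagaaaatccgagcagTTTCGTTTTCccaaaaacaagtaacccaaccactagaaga
Slfn5, chr11:82951917-82951986, plus strand: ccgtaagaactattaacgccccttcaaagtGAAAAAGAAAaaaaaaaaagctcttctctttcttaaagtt
Slfn2, chr11:83065023-83065092, plus strand: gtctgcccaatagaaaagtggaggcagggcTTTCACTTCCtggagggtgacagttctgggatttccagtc
The element begins 48 bases before 1 of the 2 *Slfn8* starts in RefSeq, 136 before the other, and 45 bases before the *Slfn9* start. Over the 250 bases before the start, 84% of positions were the same in *Slfn8* and *Slfn9* after global alignment, against 54.8% to 62.4% for the other 14 pairs of members. Only exact matches were counted, and a match is a description of letters and not of binding.

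Between the libraries, *Slfn1* and *Slfn4* were higher in *Fcmr*-/- cells by more than 1.5-fold, whereas *Slfn2*, by far the most abundant member, was slightly lower. The *Fcmr*+/+ library had 18.9 CPM of *Slfn1* (interval 18.2 to 19.7) and the *Fcmr*-/- library 42.3 CPM (interval 41.2 to 43.5), a 2.23-fold difference. The log2 ratio, after 1 CPM was added to both levels, was 1.12 (interval 1.05 to 1.19). *Slfn4* had 11.9 CPM (interval 11.3 to 12.5) and 21.7 CPM (interval 20.9 to 22.6), with a log2 ratio of 0.82 (interval 0.74 to 0.91). For both genes the intervals of the libraries lie far apart, but the spread between mice is not known. These were 2 of 6 members past the 1.5-fold limit, beside 209 of 8701 genes (2.40%) higher in *Fcmr*-/- cells among all genes with at least 5 CPM in either library. No member was lower by 1.5-fold, beside 1.69% of all genes. The members' median log2 ratio was 0.43, against 0.0023 over all genes tested.

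The long members were intermediate and *Slfn2* went the other way. *Slfn8* had 23.9 CPM in *Fcmr*+/+ and 33.6 CPM in *Fcmr*-/- cells, and *Slfn5* had 35.0 and 46.3 CPM, log2 ratios of 0.47 and 0.39. *Slfn9*, the rarest member, had 4.16 CPM (interval 3.81 to 4.53) and 5.26 CPM (interval 4.87 to 5.68). *Slfn2* stood at 482 CPM (interval 478 to 485) without the deletion and at 455 CPM (interval 452 to 459) with it, and its log2 ratio was -0.08 (interval -0.10 to -0.06). In each library the order of levels was *Slfn2* first and *Slfn9* last. *Slfn5*, *Slfn8*, *Slfn1* and *Slfn4* followed *Slfn2* in *Fcmr*+/+ cells, while *Slfn1* stood above *Slfn8* in *Fcmr*-/- cells. No neighbouring intervals in these orders overlap. *Slfn2* supplied 83.7% of all Schlafen UMIs in *Fcmr*+/+ and 75.3% in *Fcmr*-/- cells, so that the family sum moved only from 576 to 604 CPM while the sum of the other members moved from 93.9 to 149 CPM.

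**Figure D1:**
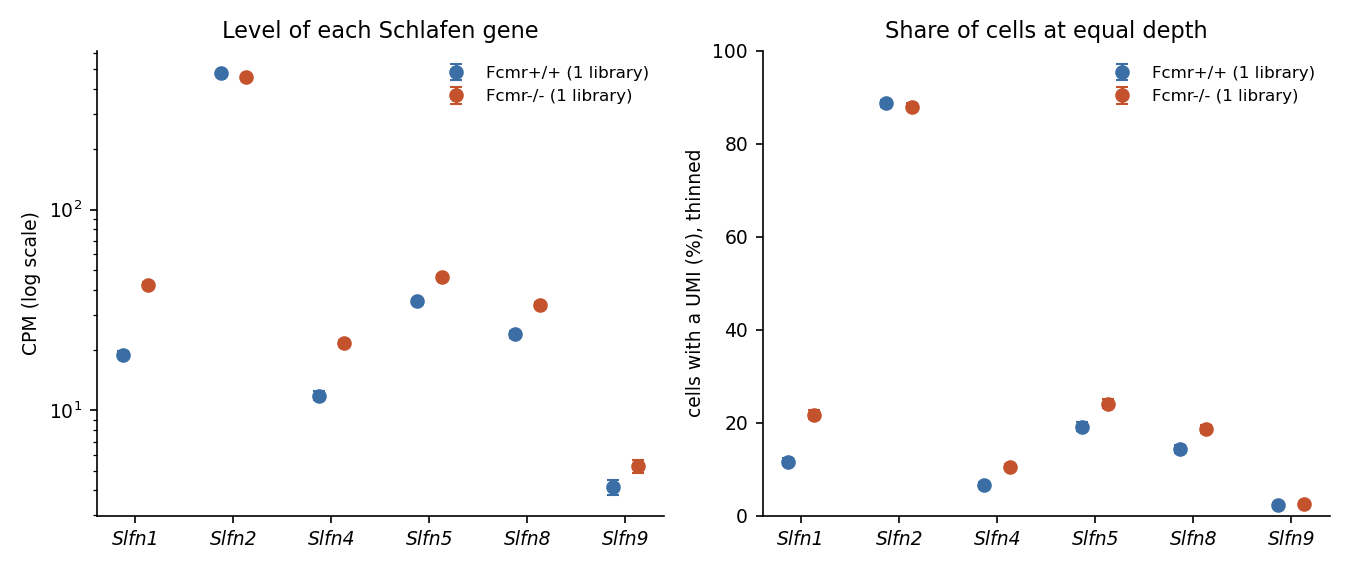
Left, level of each Schlafen gene in CPM on a log axis, and right, percent of cells with at least 1 UMI after every cell was thinned to 6403 UMIs, in 1 Fcmr+/+ library (blue) and 1 Fcmr-/- library (orange), with exact 95% counting intervals as bars. *Slfn1* stands at 18.9 and 42.3 CPM and *Slfn2* at 482 and 455 CPM.

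The same order was seen in the share of cells in which a member was caught. To compare cells of unlike depth, each cell was thinned to 6403 UMIs, which left 6280 *Fcmr*+/+ and 7354 *Fcmr*-/- cells and dropped 72 and 645 shallower ones. The share with *Slfn1* was then 11.6% (interval 10.8 to 12.4) in the *Fcmr*+/+ and 21.7% (interval 20.8 to 22.7) in the *Fcmr*-/- library, and without thinning in 22.7% and 35.4%. *Slfn4* was found in 6.67% (interval 6.07 to 7.32) and 10.4% (interval 9.73 to 11.1), and without thinning in 14.3% and 19.4%. *Slfn2* was found in 88.7% and 87.9% of cells.

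*Slfn5* was seen in 19.1% of thinned *Fcmr*+/+ and 24.1% of *Fcmr*-/- cells, and *Slfn8* in 14.4% and 18.6%. *Slfn9* was seen in 2.29% (interval 1.94 to 2.69) and 2.56% (interval 2.21 to 2.94), a difference within the counting error. Unthinned shares were 38.4% and 39.9% for *Slfn5*, 31.05% and 33.8% for *Slfn8* and 6.52% and 6.18% for *Slfn9*. By the ratio of variance to mean, *Slfn4* was the most unevenly spread of the less abundant members. Its variance over thinned cells was 2.31 times its mean in *Fcmr*+/+ and 2.20 times in *Fcmr*-/- cells, and up to 17 of its UMIs lay in a single *Fcmr*+/+ cell. *Slfn9* had ratios of 1.04 and 1.18. Its means of 0.0237 and 0.0279 UMIs per thinned cell are too low for this ratio to show how evenly it was spread. Without thinning its ratios were 1.68 and 1.63. What free RNA adds to these shares was not measured, because no cell type in the sort is known to be without these genes.

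Clusters of like cells show where the members were expressed. Both libraries were clustered together on 1335 variable genes from which every Schlafen gene had been left out, 4 members (*Slfn1*, *Slfn4*, *Slfn5* and *Slfn8*) being variable by the study's limits. Of the 10 clusters, numbered by size, cluster 9 was led by *Rsad2*, *Ifit1bl1*, *Cmpk2*, *Ifit3* and *Ifit2* and is interferon-high-like, with 5 of its 10 leading genes among 10 such markers. Cluster 1, led by *Iigp1*, *Serpina3g*, *Cxcl9*, *Gbp4* and *Gbp2*, is interferon-gamma-high-like, and 96.1% of its 2483 cells came from the *Fcmr*-/- library. Cluster 6 is G2- and mitosis-like, with *Cenpf*, *Nusap1* and *Prc1* in front, and cluster 4 is inflammatory-like with *Csf3* and *Cxcl3* in front. The others had fewer than 3 fixed markers among their leading genes and stay unnamed. They are led by *Ccl17* and *Cd209a* (cluster 2), *Tfrc* and *Gpr34* (3), hemoglobin genes (5), *Mfge8* and *Plpp3* (7), *Amica1* and *Zmynd15* (8), and *Adm* and *Rragd* (10). *Dct* and *Mlana*, genes of melanoma cells, are also among the leading genes of cluster 10.

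*Slfn1*, *Slfn2*, *Slfn4*, *Slfn5* and *Slfn8* all had their highest level in cluster 9. *Slfn1* reached 154 CPM there over both libraries, 52.7 CPM in cluster 1 and 43.3 CPM in cluster 2, and fell to 4.41 CPM in cluster 10, a 34.9-fold range. *Slfn4* reached 136 CPM in cluster 9, and cluster 2 followed with 27.0 CPM and cluster 5 with 18.8 CPM, against 3.89 CPM in cluster 3. Both genes were thus spread over a similar range, but cluster 1 came next after cluster 9 for *Slfn1* and, at 14.0 CPM, after clusters 9, 2 and 5 for *Slfn4*. *Slfn5* ran from 178 CPM in cluster 9 to 16.7 CPM in the dividing cluster 6, a 10.6-fold range. *Slfn8* ran from 117 CPM in cluster 9 to 13.2 CPM in cluster 10, an 8.86-fold range. The size of these ranges depended on the clustering. At resolution 0.4, which gave 6 clusters, they were 10.2-fold for *Slfn1*, 8.80-fold for *Slfn4*, 4.32-fold for *Slfn5* and 3.08-fold for *Slfn8*. With the interferon lists left out of the variable genes they were 14.1-fold, 9.91-fold, 4.69-fold and 4.17-fold in the same order. *Slfn2* was the most even, from 743 CPM in cluster 9 and 737 CPM in cluster 4 to 321 CPM in cluster 8, a 2.32-fold range.

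In the order of clusters, many neighbours did not differ beyond the counting error. Their intervals overlapped for 2 of 9 neighbouring pairs for *Slfn1* (clusters 4 and 5, and 3 and 10), 4 of 9 for *Slfn2*, *Slfn4* and *Slfn5*, 6 of 9 for *Slfn9* and 7 of 9 for *Slfn8*. For *Slfn2* the first pair, clusters 9 and 4, was among them. The first place of cluster 9 stood apart for *Slfn1*, *Slfn4*, *Slfn5* and *Slfn8*. Its cells had a median of 8805 UMIs. A list of 58 type I interferon response genes stood there at 20314.5 CPM against 4459 CPM in the other cells. A list of 38 type II genes stood at 4267 CPM against 2248 CPM, and in cluster 1 at 4554 CPM against 1843 CPM. Hypoxia and inflammatory lists were also higher in cluster 9, at 7286 against 4252 CPM and 13291 against 8143 CPM. The monocyte list stood at 3255 CPM in cluster 9 against 903 CPM in the other cells, and at 1879 CPM in cluster 2 against 852 CPM. In cluster 2 an MHC class II list stood at 16080 CPM against 4339 CPM in the other cells. A dendritic cell list stood there at 61.0 CPM against 5.14 CPM. The part of these lists in the levels of clusters 9 and 2 was not tested.

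**Figure D2:**
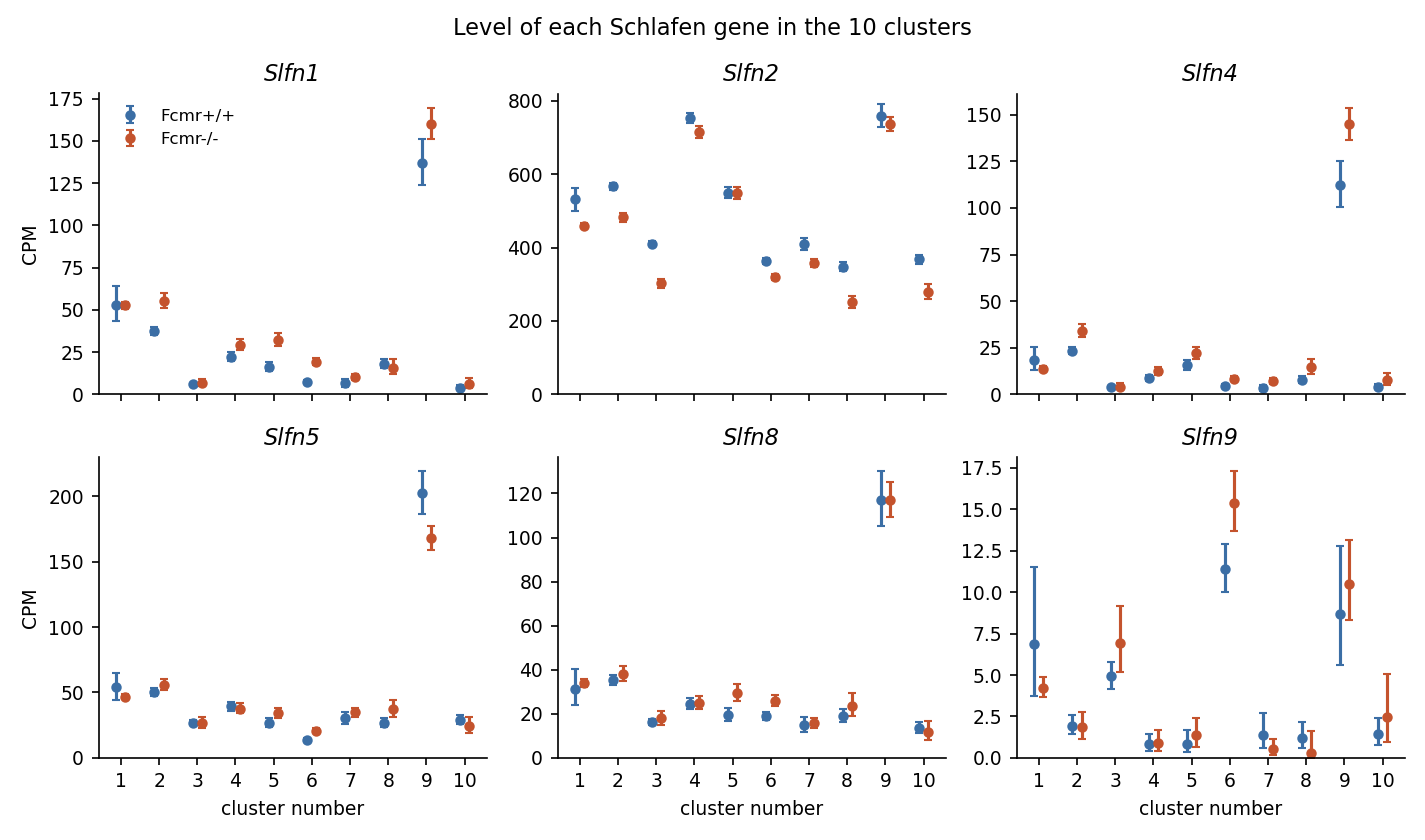
Level of each Schlafen gene in CPM (linear axes from 0, scaled per gene) in the 10 clusters, with Fcmr+/+ cells in blue, Fcmr-/- cells in orange and exact 95% Poisson intervals as bars. Cluster 9 stands highest for *Slfn1*, *Slfn4*, *Slfn5* and *Slfn8* in both libraries, cluster 6 for *Slfn9*, and the Fcmr+/+ points of *Slfn2* lie above the Fcmr-/- points.

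*Slfn9* differed from its neighbour *Slfn8* in where it was found. Its highest level, 13.3 CPM, was in the dividing cluster 6, with 11.4 CPM (interval 10.0 to 12.9) without and 15.4 CPM (interval 13.7 to 17.3) with the deletion. The interferon-high cluster 9 came next with 9.99 CPM, followed by cluster 3 with 5.33 CPM. In cluster 7 *Slfn9* was at 0.813 CPM, so that its range was 16.3-fold. *Slfn8*, by contrast, had 22.3 CPM in cluster 6 and 117 CPM in cluster 9. The promoters of this pair are the alike ones printed above.

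Within clusters, the difference in *Slfn1* between the libraries varied from none seen to more than over all cells. In cluster 1 its level was 53.0 CPM (interval 43.5 to 64.0) over 97 *Fcmr*+/+ cells, against 52.7 CPM (interval 50.6 to 54.9) over 2386 *Fcmr*-/- cells. In cluster 9 it had 137 and 160.3 CPM, and in cluster 2 37.3 and 55.4 CPM. The log2 ratio was above 0 in 8 of 10 clusters and passed 1.5-fold in 2, with 0.95 in cluster 5 and 1.33 in the dividing cluster 6. For *Slfn4* it was above 0 in 9 of 10 clusters and passed 1.5-fold in 4 (clusters 6, 7, 8 and 10), all with levels under 15 CPM, and it was -0.41 (interval -0.86 to 0.07) in cluster 1. *Slfn8* was above 0 in 8 clusters and past 1.5-fold in none, with 117 CPM in cluster 9 in each library. The counts for *Slfn1* and *Slfn4* depended on how the clusters were made. With genes scaled within each library before clustering, *Slfn1* was higher in *Fcmr*-/- cells in 11 of 11 clusters and passed 1.5-fold in 10 of them, and *Slfn4* was higher in 10 and passed it in 8. *Slfn5*, in the clusters first described, was above 0 in 6 clusters and below 0 in cluster 9, with 203 CPM in *Fcmr*+/+ and 168 CPM in *Fcmr*-/- cells. In those clusters the interval of the log2 ratio lay above 0 in 6 for *Slfn1*, 8 for *Slfn4*, 2 for *Slfn8* and 4 for *Slfn5*. It lay below 0 in 1 for *Slfn5* and in 0 for *Slfn1*, *Slfn4* and *Slfn8*.

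*Slfn2* was lower in *Fcmr*-/- cells in all 10 clusters, and in 8 of them the interval of the log2 ratio lay below 0. The ratios ran from -0.46 in cluster 8, with 347 and 252 CPM, to -0.0061 in cluster 5, with 550 and 547 CPM. In other clusterings, and among clusters with cells enough in both libraries, *Slfn2* was higher in *Fcmr*-/- cells in 0 of 12 at resolution 1.2, 1 of 6 at 0.4, 0 of 10 without the interferon genes, 2 of 10 with 20 principal components and 1 of 11 with genes scaled within each library.

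The UMIs behind the difference in *Slfn1* lay mainly in cluster 1. Counted against the whole library, the *Fcmr*-/- excess of 23.4 CPM was made up of 17.5 CPM from cluster 1, 6.34 CPM from cluster 9 and between -1.72 and 1.71 CPM from each of the others. Cluster 1 held 4.44% of the *Slfn1* UMIs and 1.53% of the cells in the *Fcmr*+/+ library, and 43.3% and 29.8% in the *Fcmr*-/- library. For *Slfn4* the net excess was 9.87 CPM, with 5.99 CPM from cluster 9 and 4.49 CPM from cluster 1, offset in part by -1.14 CPM from cluster 2 and -0.65 CPM from cluster 3. Clusters 1 and 9 are led by interferon response genes, many of which differ between the libraries, and a cluster made almost wholly of 1 library cannot be told apart from that library.

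With equal weights in both libraries over the clusters first described, or over quintiles of an interferon or monocyte score, no member passed 1.5-fold. The share of all genes past it with these weights is not given here. The count can therefore not be read as a trait of the members. In averages chosen after the data were seen, levels were weighted equally in both libraries over clusters or over quintiles, 5 equal parts of all cells ordered by the share of their UMIs in a gene list (the score). The log2 ratio of *Slfn1* was then 0.33 with equal cluster weights, 0.45 with equal quintiles of a type I interferon score, 0.33 with equal quintiles of a monocyte score and -0.20 with equal quintiles of a type II interferon score. That of *Slfn4* was 0.35, 0.13, -0.0054 and -0.36 in the same order. These weights do not cover every makeup. *Ms4a4c*, the gene most like *Slfn1* over clusters and libraries (r = 0.98), is in the type I and monocyte lists. *Irf7* and *Irf9*, among the 5 genes most like *Slfn4*, are in the type I list. Equal weights over these scores therefore also even out genes that vary with the members. They do not match the libraries by cell makeup alone. The monocyte list also holds *Ly6a*, a leading gene of cluster 1. The clusters weighted include cluster 1, with 97 *Fcmr*+/+ cells. In the 11 clusters from genes scaled within each library, the *Slfn1* log2 ratio was 0.44 to 1.39. Equal weights over those clusters are not given here. Within quintiles of the inflammatory score described below, the *Slfn1* log2 ratio was 0.78 to 1.26, and within those of the cell cycle score 0.85 to 1.35. *Slfn2* stayed below 0, between -0.29 and -0.06, in all 16 alternatives tried. Within the highest inflammatory quintile taken alone, however, its log2 ratio was 0.05 (interval 0.02 to 0.08).

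**Figure D3:**
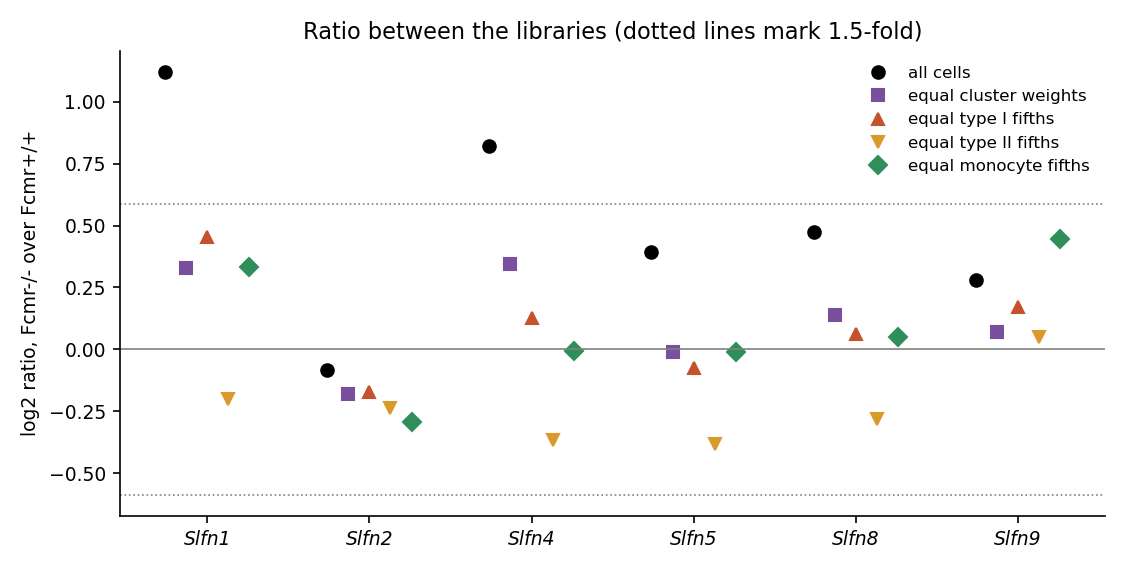
Log2 ratio of Fcmr-/- to Fcmr+/+ levels for each Schlafen gene over all cells (black) and with the same weights in both libraries over clusters or over quintiles of cells by type I, type II and monocyte scores (colors), with dotted lines at 1.5-fold. The ratio of *Slfn1* moves from 1.12 to between -0.20 and 0.45, and *Slfn2* stays below 0.

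Cells were next ordered by how much of their RNA came from interferon response genes, none of which is a Schlafen gene. A type I score, the share of a cell's UMIs in 58 genes, split the cells of both libraries into 5 equal parts, or quintiles. From the lowest to the highest quintile, *Slfn4* rose from 2.64 to 57.2 CPM in *Fcmr*+/+ and from 4.33 to 63.3 CPM in *Fcmr*-/- cells, 21.7-fold and 14.6-fold. *Slfn1* rose from 4.07 to 78.1 CPM and from 7.34 to 98.9 CPM, 19.2-fold and 13.5-fold. *Slfn1* and *Slfn4* thus had the steepest course. Their windows held no exact match to the 3 promoter elements, but near matches were not searched for. Whether the elements go with the course was not tested. *Slfn5* rose 6.35-fold and 5.07-fold, to 107 and 98.3 CPM, and *Slfn8* 4.72-fold and 5.07-fold, to 64.9 and 67.5 CPM. *Slfn9* rose from 3.26 to 5.43 CPM and from 3.33 to 7.70 CPM, and *Slfn2* from 439 to 624 CPM and from 374 to 585 CPM.

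From each type I quintile to the next, the level of every member was higher in both libraries. Intervals of neighbouring quintiles overlapped, however, for *Slfn9* throughout in *Fcmr*+/+ cells and below the highest quintile in *Fcmr*-/- cells. They also did for *Slfn8* between quintiles 2 and 3 in both libraries. For *Slfn2* they did between quintiles 1 and 2 in *Fcmr*+/+ and 2 and 3 in *Fcmr*-/- cells. In *Fcmr*+/+ cells the log2 ratio of highest to lowest quintile for *Slfn9* was 0.59 (interval 0.22 to 0.96), an interval that crosses the 1.5-fold limit. The highest quintile exceeded the lowest by 1.5-fold for 5 of 6 members in *Fcmr*+/+ cells, *Slfn2* being the exception at 1.42-fold, beside 5.95% of all genes outside the score. In *Fcmr*-/- cells it did for 6 of 6, beside 7.59%. Within these quintiles *Slfn5* and *Slfn8* had log2 ratios between the libraries of -0.16 to 0.19, while *Slfn1* stayed higher in *Fcmr*-/- cells in all 5 quintiles, by 0.34 to 0.72. The median cell had 0.309% of its UMIs in the score genes in *Fcmr*+/+ and 0.466% in *Fcmr*-/- cells, and 12.4% and 26.1% of cells lay in the highest quintile.

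A type II score of 38 genes, typical of interferon-gamma, gave another picture. The highest quintile held 221 *Fcmr*+/+ and 2650 *Fcmr*-/- cells. In it *Slfn4* had 65.3 CPM in *Fcmr*+/+ and 30.2 CPM in *Fcmr*-/- cells. The log2 ratio was -1.09 (interval -1.29 to -0.87). *Slfn5* had 119 and 60.4 CPM, *Slfn8* 76.5 and 47.2 CPM and *Slfn1* 104 and 68.6 CPM. In cells with the most type II transcripts these members were therefore higher in the *Fcmr*+/+ library, the reverse of the comparison over all cells. The score in this quintile ran from 0.330% to 3.33% of UMIs, so the cells of the libraries in it need not have like scores. The equal weights over type II quintiles rest on the same 221 *Fcmr*+/+ cells in the highest one. The highest quintile passed the lowest by 1.5-fold for 4 of 6 members in *Fcmr*+/+ cells (8.29% of all genes) and 5 of 6 in *Fcmr*-/- cells (7.24%), where *Slfn9* was added and *Slfn2*, with 411 and 497 CPM, stayed below the limit.

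Because the interferon scores go together, cells were also split into 3 equal parts (tertiles) by 2 scores at once, a split added after the data were seen. Over both libraries, cells low in both type I and type II scores had 5.41 CPM of *Slfn1* and 3.52 CPM of *Slfn4*. With the type II score alone in its highest tertile, 267 cells had 17.1 CPM of *Slfn1* and 7.08 CPM of *Slfn4*, and *Slfn5* was at 15.9 CPM, against 19.1 CPM where both scores were low. With the type I score alone high, 430 cells had 28.2 CPM of *Slfn1*, 20.4 CPM of *Slfn4* and 46.3 CPM of *Slfn5*. Where both scores were high, *Slfn1* stood at 83.1 CPM and *Slfn5* at 83.2 CPM. *Slfn8* had 14.3 CPM in cells low in both, 15.1 CPM in cells high in type II alone and 29.4 CPM in cells high in type I alone. Where both scores were high it had 58.5 CPM. *Slfn5* and *Slfn8* thus showed little rise with the type II score alone, more with the type I score alone and most with both.

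A score of 12 monocyte genes, among them *Ly6c2*, *Ccr2* and *Plac8*, separated the members in another way. The 12 also hold *Ly6a* and *Ms4a4c*, the latter a gene of the type I list too. *Ly6a* is also a leading gene of the interferon-gamma-high-like cluster 1. Its log2 ratio between the libraries was 3.44, the highest of the 12. That of *Ly6c2* was 1.76, that of *Ccr2* 0.04, that of *Hp* -0.71 and that of *Gsr* -0.26. How far *Ly6a* sets the order of cells by this score was not tested. *Slfn2* rose from 387 to 719 CPM in *Fcmr*+/+ and from 296 to 595 CPM in *Fcmr*-/- cells. *Slfn1* rose from 4.59 to 75.4 CPM and from 7.85 to 90.4 CPM, and *Slfn4* from 2.99 to 53.2 CPM and from 4.66 to 54.6 CPM. *Slfn5* and *Slfn8* rose 3.05-fold to 3.66-fold. *Slfn9* alone did not rise, with 5.84 CPM in the lowest and 3.55 CPM in the highest quintile of *Fcmr*+/+ cells and 6.83 and 5.66 CPM in *Fcmr*-/- cells. The count past 1.5-fold was 5 of 6 members in each library, beside 10.4% of genes in *Fcmr*+/+ and 8.44% in *Fcmr*-/- cells.

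*Ly6a*, though a leading gene of the interferon-gamma-high-like cluster 1, is in neither interferon list. A further split used the type I score and 11 monocyte genes outside the interferon lists, *Ly6a* still among them. *Slfn5* stood at 18.5 CPM where both were low and at 16.9 CPM in 509 cells high in monocyte genes alone. *Slfn1* stood at 3.41 and 21.9 CPM and *Slfn2* at 363 and 672 CPM in the same cells. With the type I score alone high, in 612 cells, *Slfn5* had 58.7 CPM, *Slfn1* 26.2 CPM and *Slfn4* 9.78 CPM, and with both high *Slfn4* had 54.0 CPM. *Slfn4* was therefore highest where both scores were high among these groups of cells. So were *Slfn1* at 87.3 CPM, *Slfn5* at 83.9 CPM and *Slfn8* at 58.7 CPM, while *Slfn2* and *Slfn9* were not. In a like split by the type II score and monocyte genes, *Slfn2* stood at 726 CPM in 664 cells high in monocyte genes alone, against 399 CPM in 555 cells high in type II alone.

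*Slfn2* also followed inflammatory genes. Across quintiles by 11 inflammatory genes such as *Il1b*, *Cxcl2* and *Tnf*, a score added after the data were seen, it rose from 332 to 723 CPM in *Fcmr*+/+ and from 305 to 749 CPM in *Fcmr*-/- cells, 2.18-fold and 2.45-fold. *Slfn4* rose 1.72-fold and 3.11-fold and *Slfn1* 1.60-fold and 2.00-fold. *Slfn9* had 4.34 and 2.72 CPM in *Fcmr*+/+ and 6.49 and 3.00 CPM in *Fcmr*-/- cells. In all, 3 of 6 members rose past 1.5-fold in *Fcmr*+/+ cells (5.01% of genes) and 5 of 6 in *Fcmr*-/- cells (6.58%). *Slfn9* was lower by that much in *Fcmr*-/- cells, where 16.0% of genes were, and no member was in *Fcmr*+/+ cells, where 7.58% were.

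**Figure D4:**
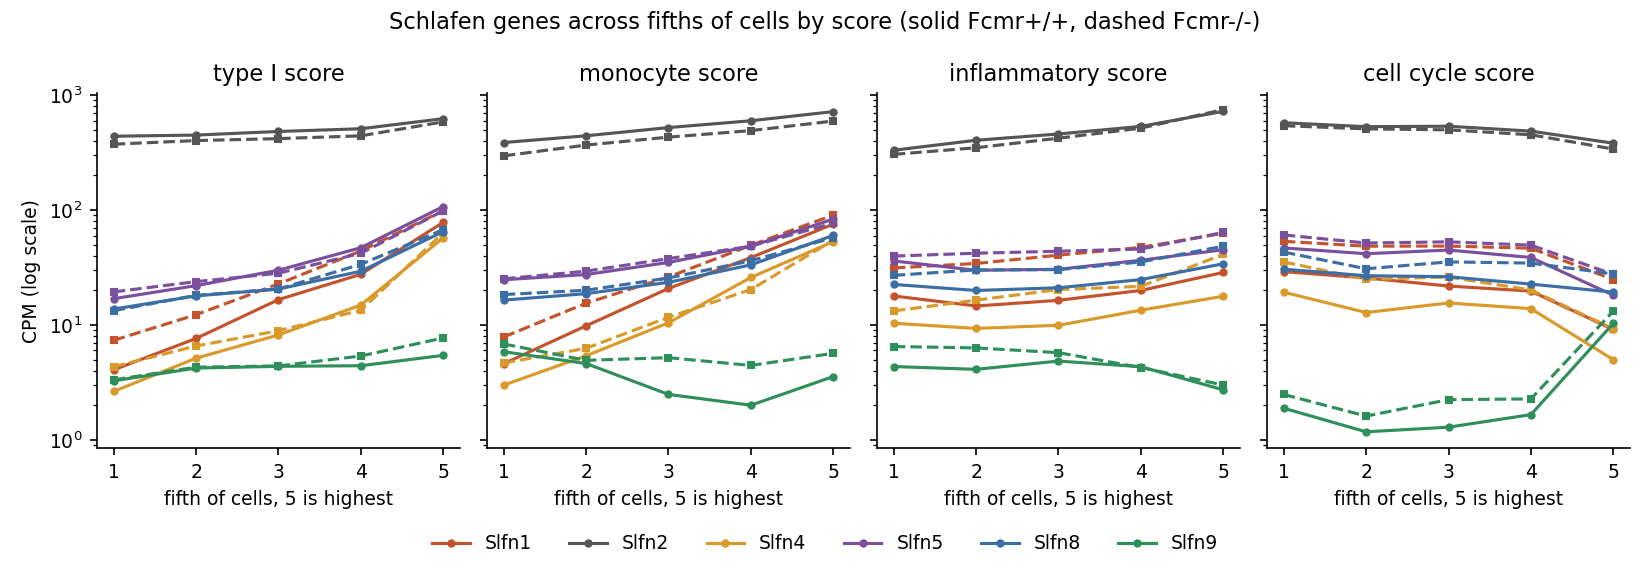
Level of each Schlafen gene in CPM on a log axis across quintiles of cells ordered by type I interferon, monocyte, inflammatory and cell cycle scores, with solid lines for Fcmr+/+ and dashed lines for Fcmr-/- cells. *Slfn1* and *Slfn4* climb most with the type I score, to 78.1 and 57.2 CPM in Fcmr+/+ cells, and *Slfn9* climbs with the cell cycle score while the others decline.

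The cell cycle separated *Slfn9* from the rest of the family. Over quintiles by the share of UMIs in 41 S phase and mitosis genes, *Slfn9* went from 1.88 to 10.3 CPM in *Fcmr*+/+ and from 2.48 to 13.2 CPM in *Fcmr*-/- cells, 5.47-fold and 5.31-fold. It lay between 1.17 and 2.48 CPM in the lower 4 quintiles of both libraries. The other 5 members were each lower by 1.5-fold or more in the highest quintile in both libraries, beside 6.05% of all genes in *Fcmr*+/+ and 5.79% in *Fcmr*-/- cells. *Slfn4* went from 19.3 to 4.98 CPM and from 35.4 to 9.26 CPM, and *Slfn2*, linked to quiescence, from 575 to 382 CPM and from 542 to 339.8 CPM. Higher by 1.5-fold were 18.4% of genes in *Fcmr*+/+ and 17.1% in *Fcmr*-/- cells, so that a rise past this limit was common among all genes. How many genes rose as much as *Slfn9* was not counted. Cells of the highest quintile were also deeper, with median UMIs of 26803 and 22206 against 12092 and 10252 in the lowest.

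Among the cells of the highest cell cycle quintile, those with mostly mitosis transcripts held less *Slfn9* than those with more S phase transcripts. In the tertile of these cells with the lowest S phase share, *Slfn9* stood at 4.90 CPM (interval 3.75 to 6.29) in *Fcmr*+/+ and 6.10 CPM (interval 4.75 to 7.71) in *Fcmr*-/- cells. In the middle tertile it had 13.5 CPM (interval 11.6 to 15.5) and 18.1 CPM (interval 15.9 to 20.5), and in the tertile with the highest share 12.1 CPM (interval 10.2 to 14.2) and 14.7 CPM (interval 12.5 to 17.2). *Slfn8* showed no such course, with 18.0 to 20.8 CPM in *Fcmr*+/+ and 26.6 to 28.9 CPM in *Fcmr*-/- cells over the same tertiles.

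In single cells, the interferon-linked members were found together more often than the product of their shares gives. After thinning, *Slfn1* and *Slfn4* were both present in 118 *Fcmr*+/+ cells where 48.5 would follow from their shares, a ratio of 2.43 (interval 2.02 to 2.91), and in 299 *Fcmr*-/- cells, a ratio of 1.80 (interval 1.60 to 2.01). *Slfn4* with *Slfn5* gave 1.94 and 1.70, and *Slfn5* with *Slfn8* 1.55 and 1.47. Pairs with *Slfn2* lay between 0.939 and 1.06. Because *Slfn2* was found in most cells, these ratios had little room above 1 and cannot be set against those of rarer pairs. *Slfn1* was found in 12.2% of thinned *Fcmr*+/+ cells with *Slfn2* and 6.64% of those without it. In *Fcmr*-/- cells these shares were 23.1% and 11.6%. For *Slfn9* in *Fcmr*+/+ cells they went the other way, with 2.15% and 3.39%. *Slfn8* with *Slfn9* gave 1.98 (interval 1.42 to 2.68) and 1.54 (interval 1.16 to 2.01), from 41 and 54 cells. The interval lay above 1 for 7 of 15 pairs in *Fcmr*+/+ and 9 of 15 in *Fcmr*-/- cells, and all pairs come from the same cells of 1 library. The share among pairs of other genes was not counted, so these counts cannot be read as a trait of the family. Without *Slfn2*, 61.4% of *Fcmr*+/+ and 48.5% of *Fcmr*-/- cells showed none of the other 5 members, and 3.07% and 5.67% showed 3 or more.

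**Figure D5:**
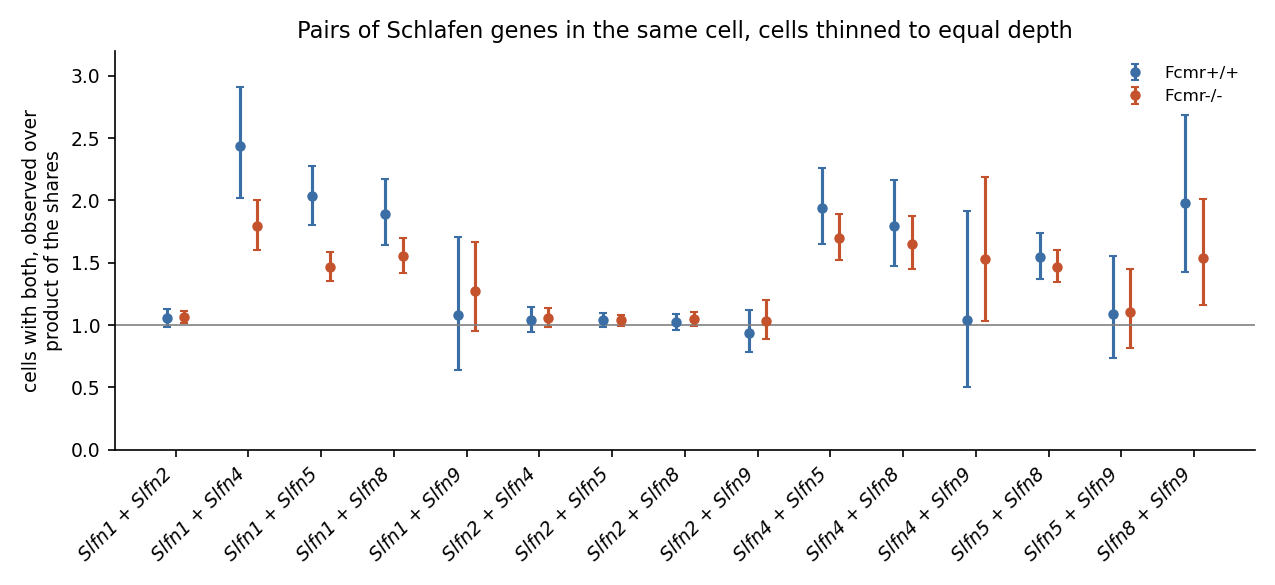
Number of cells with UMIs of both genes over the number that the product of their shares gives, for the 15 pairs of Schlafen genes in cells thinned to 6403 UMIs, in 1 Fcmr+/+ (blue) and 1 Fcmr-/- library (orange), with exact 95% Poisson intervals of the observed number as bars and a line at 1. *Slfn1* with *Slfn4* is highest in both libraries, at 2.43 and 1.80. Pairs with *Slfn2* lie near 1, above which the high share of cells with *Slfn2* leaves them little room.

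The genes with the most similar pattern differed between members. Likeness was Pearson's r of log2 levels over 20 profiles, 1 for each cluster and library, among 8700 genes, and is a description since the profiles share libraries and clusters. *Slfn8* was most like *Xaf1* (r = 0.99), a type I response gene, then *Pyhin1*, *Ifi204*, *Daxx* and *Usp18*. *Slfn1* was most like *Ms4a4c* (r = 0.98), *Pyhin1*, *Ifitm3*, *Zbp1* and the monocyte marker *Ly6c2*, and *Slfn4* like *Ifi204* (r = 0.96), *Pyhin1*, *Irf7*, *Irf9* and *Isg20*. *Slfn5* was most like *Isg20* (r = 0.92), *Ifi204*, *Slfn8*, *Pyhin1* and *Tor3a*. *Slfn2* kept other company, with *Nfkbib* (r = 0.94), an inhibitor of NF-kB, *Ccrl2*, *Cdkn1a*, *Adora2b* and *Socs3*. *Slfn9* was most like *Sass6* (r = 0.90), which builds centrioles, *Aida*, *Hat1* and *Nono*. These lists changed with the measure. With Spearman's correlation, 3 of the 5 genes stayed among the nearest 5 for *Slfn1* and for *Slfn2*, 2 for *Slfn8*, 1 for *Slfn4* and *Slfn9* and 0 for *Slfn5*. *Pyhin1*, of the family that senses DNA, stayed for *Slfn1*, *Slfn4* and *Slfn8* and not for *Slfn5*. Between *Slfn9* and *Slfn8* r was 0.42.

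The pathways the family is tied to moved in different degrees between the libraries. Of 55 type I response genes tested, 27 were higher in *Fcmr*-/- cells by 1.5-fold and 0 lower (median log2 ratio 0.57), with *Ifi47* (1.43), *Zbp1* (1.41) and *Gbp7* (1.39) highest and *Ifit1* (-0.15), *Ifi27l2a* (-0.03) and *Nt5c3* (0.17) lowest. Of 33 type II genes, 29 were higher and 1 lower (median 1.14), led by *Iigp1* (4.13), *Cxcl9* (3.59) and *Serpina3g* (3.38). At the other end were *Icam1* (-0.84, the lower one), *Irf8* (0.22) and *Wars* (0.23). Of 19 receptors, kinases and factors of interferon signaling, 5 were higher, among them *Irf7*, *Stat2*, *Socs1* and *Usp18*. In that list 1 was lower, *Ifnb1*, which encodes interferon beta, with 10.3 CPM in *Fcmr*+/+ and 3.97 CPM in *Fcmr*-/- cells. *Slfn1*, at 1.12, lay above the type I median and *Slfn2*, at -0.08, below it.

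Few genes tied to the known roles of *Slfn2* passed the limit, past which 2.40% of all genes were higher and 1.69% lower. Of 12 genes of tRNA cleavage and translation stress tested, 0 passed 1.5-fold in either direction, with a median log2 ratio of 0.0028 and *Rnh1*, the inhibitor of ribonucleases such as angiogenin, at 512 CPM in *Fcmr*+/+ and 547 CPM in *Fcmr*-/- cells. Of 17 genes of quiescence and cell cycle brakes, 0 were higher and 1 was lower, *Klf2*, with 270.4 and 178 CPM, and the list had a median of -0.25. With cells that held a UMI of a T or NK cell marker left out, 2.91% of *Fcmr*+/+ and 3.59% of *Fcmr*-/- cells, the log2 ratios of *Slfn1* and *Slfn4* were 1.14 and 0.83. Leaving out cells with a dendritic cell or neutrophil marker removed 52.4% of *Fcmr*+/+ and 59.4% of *Fcmr*-/- cells, and the ratios were then 1.00 and 0.69.

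Close relatives share sequence, and reads that fit several genes are dropped in unique counting. In windows of 50 bases over the last 1000 bases of the longest coding transcript, near which 3′ reads start, 14.4% of *Slfn8* windows also occurred in another gene, mostly in the pseudogene *Slfn10-ps* and in *Slfn9*. The share was 7.26% for *Slfn2*, all in *Slfn4*, and 6.94% for *Slfn5*, with *Klhl24* and *Garnl3* the most frequent partners. It was 1.16% for *Slfn1*, and 0 of 951 windows were shared for *Slfn4* and for *Slfn9*. *Slfn8* levels are therefore the least certain of the 6 in this respect, although in its last 500 bases the share was 3.10%.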

How the data were processed

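Per the labels and the study's methods, the authors sorted tumor mononuclear phagocytes, made 10x 3′ libraries and counted UMIs with Cell Ranger on GRCm38. The matrices they deposited hold these counts without normalization. The submitters' notes also name Seurat 2.1.0. Following the study's limits, cells with 200 to 7000 genes and at most 30% mitochondrial UMIs were kept, as were genes found in 3 or more cells. No doublet caller was run, and 5000 genes per cell was tried as a lower limit against doublets. For each group of cells, a gene's UMIs were summed and expressed per 1000000 UMIs of the group (CPM). A log2 ratio compares 2 such levels with 1 CPM added to each. A gene was counted at 1.5-fold with at least 5 CPM in either group. Clusters came from Seurat 5.3.0 in R 4.3.3 (scale 10000, 10 principal components, 30 neighbors, resolution 0.8), without Schlafen genes. Other steps used Python 3.11.15, numpy 2.4.6 and scipy 1.17.1. The calculations were tested on simulated data.

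The members and the lists were chosen with earlier results of these data known. Apart from a few genes not reported here, the text names the 6 members, other listed Schlafen genes, the 5 genes most like each member, the 3 highest and lowest genes of both interferon lists, members of the signaling list, flanking genes and leading genes of clusters. The examples from the quiescence and tRNA lists and the example genes of scores were chosen after their values were seen. Thinning removed cells under 6403 UMIs, the 5th percentile. Alternatives covered limits on cells, pseudocount, filter, scaling, thinning, clustering, score limits and the measure of likeness.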

Additional observations from a re-analysis of the deposited data

Results flagged for a closer look

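*Slfn3*, which is listed in the count matrices but is not 1 of the 6 genes described, had 145 UMIs in *Fcmr*+/+ and 117 UMIs in *Fcmr*-/- cells, more than the 3 counts that a count of 0 allows. These are 1.13 CPM and 0.939 CPM, and their intervals overlap (0.953 to 1.33 and 0.776 to 1.13). *Slfn3* shares 16.4% of its 50-base windows with other genes, mainly *Slfn4*. *Slfn14* had 0 and 1 UMIs, *Slfnl1* 1 and 0 and the antisense *Slfn5os* 0 and 0.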

How the results depend on the processing

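The number of members higher by 1.5-fold in *Fcmr*-/- cells was 2 over all cells. It was 0 with equal weights over the clusters first described, 0 over type I quintiles, 0 over type II quintiles and 0 over monocyte quintiles. These 4 settings were chosen after the data were seen. The share of all genes past the limit under them is not given here. The change from 2 to 0 can therefore not be read as a trait of the members. With equal type II quintiles the log2 ratios of *Slfn1* and *Slfn4* reversed to -0.20 and -0.36, and with equal monocyte quintiles that of *Slfn4* reversed to -0.0054. The other 55 values of counts of members or pairs under alternatives stayed within 1.5 times. Ranges over clusters did not, and the number of clusters with *Slfn1* past 1.5-fold went from 2 to 10 with genes scaled within each library. Of values for single members, 214 stayed close to the value reported, 215 moved without a reversal, and 3 reversed. The cause of these shifts was not tested. No paired analysis was possible because each genotype has 1 library. For the same reason no library could be left out. At this depth a count of 0 allows up to 0.0234 CPM in *Fcmr*+/+ and 0.0241 CPM in *Fcmr*-/- cells.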
